A study of Mus musculus with 16 samples.

Results

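Chromatin immunoprecipitation with sequencing (ChIP-seq) mapped Cbx3 in mouse neural progenitor cells. In 1 of 2 Cbx3 libraries, set 1, certain megabases of the genome held many Cbx3 windows, and these held few of RNA polymerase II (Pol II). Autosomes were divided into bins of 1 Mb, and all coordinates are of the build mm9. Bins were chosen by measured values: a bin was taken where Cbx3 set 1 listed 600 or more windows of 50 bp and the Pol II list of the control siRNA cells held 30 or fewer. That gave 237 of the 2417 autosomal bins with any Cbx3 window (9.81%). They are called the dense bins below, a name that rests on set 1 alone. All Cbx3 windows of both sets in them, merged where they lay up to 200 bp apart, formed 88988 regions, of 511262 such regions in the whole genome.

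The cells were progenitors made from the mouse embryonic stem cell line V6.5 by way of embryoid bodies, grown for 4 days, and were crosslinked with 1% formaldehyde. Pol II, Med26 and Cdk8 were mapped 72 hours after transfection of an siRNA against Cbx3, or of a control siRNA against luciferase. Cbx3 (2 libraries, sets 1 and 2) and Pol II (1 library) were also mapped in cells given no siRNA per their labels, which do not say whether the Cbx3 sets came from separate cultures. Each siRNA arm had 1 library per antibody, from a single cell line, so no difference between arms or between kinds of bin carries a p-value here. No expression values were analysed here, so the labelled cell type was not checked against its markers, and the level of Cbx3 after its siRNA was not analysed here.

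Cbx3 is HP1 gamma, a member of the heterochromatin protein family. These proteins bind methylated lysine 9 of histone H3 through a chromodomain and bridge neighbouring nucleosomes. Unlike its relatives at centromeric heterochromatin, Cbx3 is also found outside heterochromatin, including along the bodies of active genes. Pol II transcribes protein-coding genes, Med26 is a subunit of the Mediator coactivator that takes part in Pol II pausing and elongation, and Cdk8 is the kinase of a detachable Mediator module.

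The lists held 923942 and 244855 windows for Cbx3 sets 1 and 2, and from 2721 to 116001 for the other 7 libraries. Values were whole multiples of a fixed step in each library. With 50 steps read as 1 read over a whole window, an inference from the values, the median dense-bin window held 8.18 reads in set 1 and 6 in set 2. Total depth is unknown from such lists, and a window below the minimum of a list is missing from it. Intervals are 95% Wilson intervals for shares and follow from them for ratios, are binomial for medians, and speak to counting error alone. They are too narrow where adjoining windows hold the same reads, and bins of 1 library are not replicates.

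The choice of bins rests on Cbx3 set 1 and control Pol II, and their values are a description only. Set 1 listed a median of 763 windows per dense bin, from 600 to 1961, against 278 in the other 2180 autosomal bins. Altogether 205929 set 1 windows, or 23.6% of its autosomal windows, lay in these 9.81% of bins. They still covered only 4.34% of the sequence of the bins, against 1.53% elsewhere. Control Pol II listed 0 windows in 174 of the 237 bins (73.4%), against 22.2% of all autosomal bins, and at most 25 in any dense bin. The description as lacking Pol II thus holds strictly for 174 bins, while 63 held between 1 and 25 Pol II windows. Of all autosomal bins, 10.7% had 600 or more set 1 windows and 55% had 30 or fewer control Pol II windows, and 91.9% of the bins with 600 or more also met the Pol II limit.

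The bin on chromosome 16 from 61000001 to 62000000 held the most set 1 windows, 1961, with 143 in set 2 and 0 of control Pol II. Next came chromosome 12 from 116000001 to 117000000 with 1762 in set 1 and 99 in set 2. On chromosome 7 from 55000001 to 56000000 set 1 listed 1739 windows and set 2 listed 230. These 3 bins led the group in set 1, but their set 2 counts ran from near the median of all autosomal bins, 90 windows, upwards. Chromosome 17 from 38000001 to 39000000 followed with 1735 and 161 windows in sets 1 and 2, and chromosome 9 from 93000001 to 94000000 with 1721 and 169. Among these 5 bins, only the chromosome 12 bin with 1 and the chromosome 17 bin with 10 listed any control Pol II window.

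At the Cbx3 limit the values ran without a gap. The nearest bins inside held 600, 602 and 603 set 1 windows, and the nearest outside with little Pol II held 599, 599 and 595. At the Pol II limit the fullest bins inside held 25, 25 and 24 control windows, and the nearest outside, among bins with 600 or more set 1 windows, 31, 33 and 33. Only 21 bins were dense in Cbx3 set 1 with more than 30 Pol II windows.

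**Figure D1:**
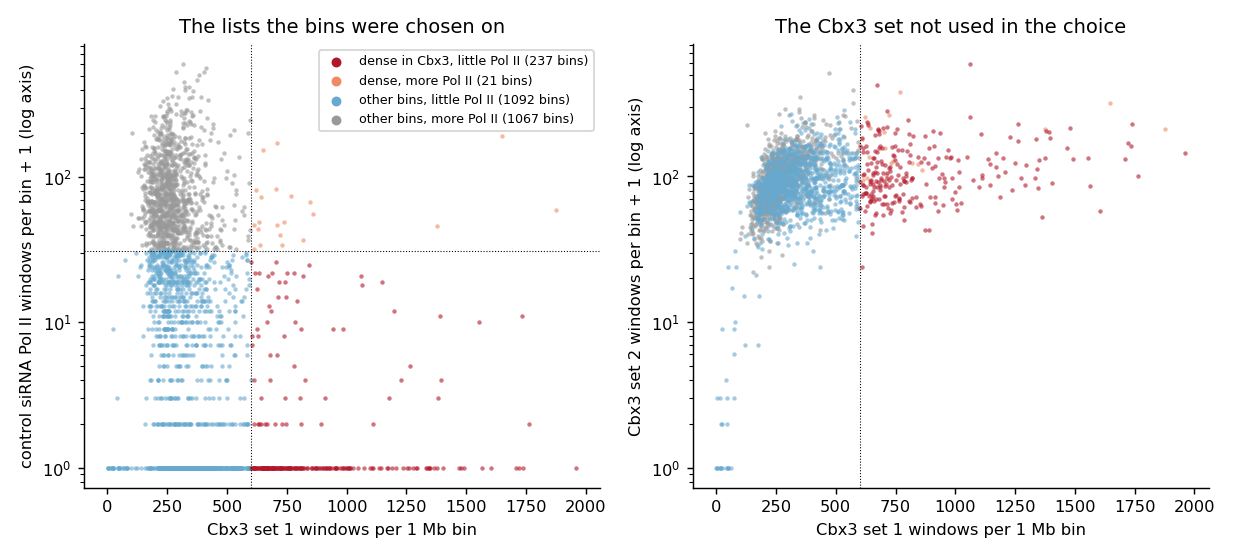
Each point is an autosomal bin of 1 Mb, placed by its Cbx3 set 1 windows on the x axis and, on log axes, by its control siRNA Pol II windows plus 1 (left) or its Cbx3 set 2 windows plus 1 (right); dotted lines mark the limits of the choice. The 237 dense bins extend from 600 to 1961 set 1 windows, while their set 2 counts, with a median of 98, lie at the height of the other bins.

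Cbx3 set 2 took no part in the choice of bins. It listed a median of 98 windows per dense bin, from 23 to 590, against 89.5 in the other bins. The mean was 116 windows per Mb in the dense bins and 97.3 elsewhere, a ratio of 1.19 (interval 1.17 to 1.20), where set 1 had 2.85. The excess in set 2 was thus smaller than in the set that defined the bins. With set 2 windows at or above the median signal alone, the ratio was 0.991, so no excess remained. Without the 5 dense bins with most set 2 windows it was 1.13.

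Of the dense bins, 49 (20.7%, interval 16.0 to 26.3%) were among the bins with 151 or more set 2 windows, against 10.3% of all autosomal bins. In the other direction, 92 of the 237 lay below the autosomal median of 90. An equal number of bins, the 258 with most windows in each set, gives another view. Of the 258 fullest in set 1, 91.9% had 30 or fewer control Pol II windows, and of the 258 fullest in set 2, 49.6%. Over all autosomal bins that share was 55%, so it was not raised among the bins fullest in set 2. Among those fullest in set 2, 61 (23.6%) were also dense in set 1, against 10.7% of all autosomal bins. Across the 237 dense bins, Spearman's rho between the window counts of the sets was 0.17, and across all 2417 bins 0.38. Both are descriptions over bins that share a library.

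The fullest dense bin in set 2 was that on chromosome 9 from 3000001 to 4000000, with 590 windows in set 2 and 1063 in set 1. The bin on chromosome 1 from 7000001 to 8000000 came next with 423 in set 2 and 673 in set 1. Further bins of this rank lay on chromosome 9, from 11000001 to 12000000 (279 in set 2), from 92000001 to 93000000 (255) and from 6000001 to 7000000 (243). So 4 of the 5 were on chromosome 9. Control Pol II listed 17, 20, 0, 20 and 0 windows in the 5 bins in the order given, so the group fullest in set 2 was mixed in Pol II.

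Windows in the dense bins were many but not tall. The median set 1 signal was 32.6 in the dense bins (interval 32.5 to 32.7), 33.0 in the 1092 other bins with 30 or fewer control Pol II windows, and 37.6 in the 1067 other bins with more. In set 2 the medians were 13.1, 13.1 and 14.6 in the same order. The height of a window in the dense bins was therefore close to that in other Pol II-poor bins in both sets, and lower than in bins with more Pol II. Signal units differ between the sets and are not compared across them.

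When set 1 windows were split into deciles of signal, the dense bins held 101 windows per Mb of the lowest decile, against 37.0 in the other Pol II-poor bins and 19.1 in the other bins with more Pol II. In the highest decile they held 45.0, against 18.6 and 49.5. The ratio of dense bins to other Pol II-poor bins stayed between 2.42 and 2.98 over all 10 deciles. Against bins with more Pol II the ratio was 5.28 in the first decile and 5.78 in the second, and then smaller in each decile up to 0.908 in the tenth. In set 2 the corresponding ratios to other Pol II-poor bins were 1.11 to 1.44 over all 10 deciles. To bins with more Pol II they were 1.74 in the first decile and 0.598 in the tenth.

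**Figure D2:**
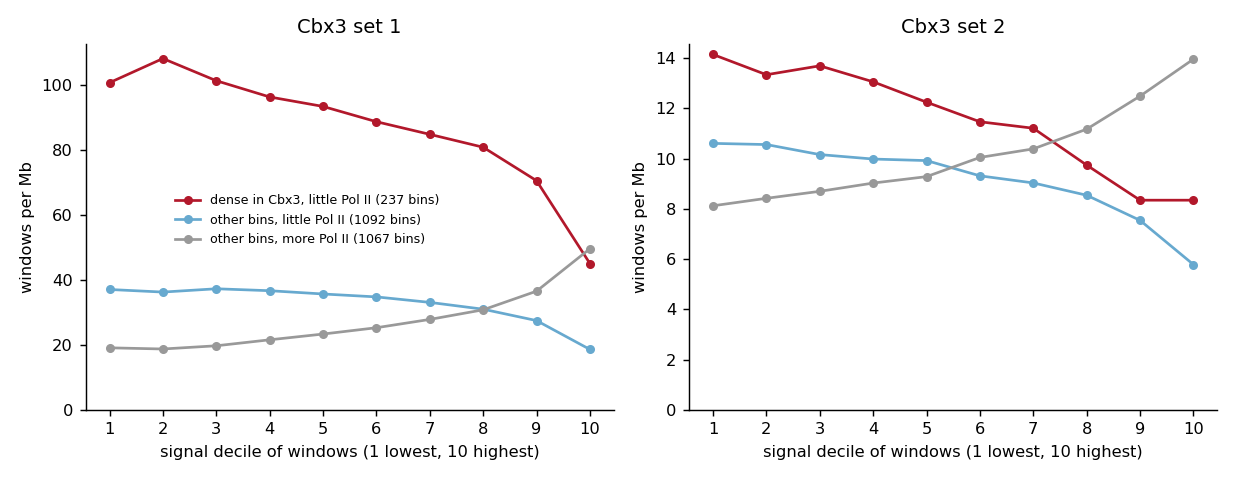
Windows per Mb (y axis) in each decile of window signal (x axis, lowest to highest) for Cbx3 set 1 (left) and set 2 (right), in dense bins, other bins with little Pol II and other bins with more Pol II. Set 1 windows are denser in the dense bins in the first 9 deciles and reach 45.0 per Mb in the tenth, below the 49.5 per Mb of bins with more Pol II.

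A few windows of very high signal were the exception. Set 2 listed 361 windows above 137, which is 10 times its median, in 5 of the dense bins, and 336 of them (93.1%) lay in the bin on chromosome 9 from 3000001 to 4000000. These 361 windows made up 1.32% of the set 2 windows in the dense bins, against 0.441% over all autosomes. They held 61.7% of the summed signal, against 52.3% over all autosomes. In other Pol II-poor bins such windows held 67.2% of the signal, and in other bins with more Pol II 6.22%. Set 1 had 63 windows above 10 times its own median in the dense bins, 0.0306% of its windows there. That share was 0.145% over all autosomes and 0.0269% in other Pol II-poor bins.

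The merged regions were short. They averaged 129 bp of listed sequence in the dense bins, and 35.1% were single windows, against 104 bp and 45.4% in other Pol II-poor bins. There were 375 regions per Mb in the dense bins and 196 per Mb in other Pol II-poor bins, which puts neighbouring regions on average 2663 bp and 5090 bp apart. The dense bins thus held short regions at close spacing and not long continuous tracts. The longest region of the group reached 3500 bp.

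Of the 88988 regions, 74961 (84.2%) held windows of set 1 alone, 8719 (9.80%) of set 2 alone and 5308 (5.96%, interval 5.81 to 6.12%) of both. In other Pol II-poor bins 5.42% held both sets, and in other bins with more Pol II 7.06%. Regions with both sets in the dense bins averaged 287 bp and had a median top signal of 37.5 in set 1, against 33.5 for regions of set 1 alone.

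The longest regions with both sets included 4 in 1 stretch of chromosome 9. That from 3024301 to 3027950 held 3450 bp of set 1 and 3500 bp of set 2, with a top signal of 693 in set 1 and 10783 in set 2. That from 3035551 to 3038350 held 2250 and 2300 bp, that from 3003851 to 3006100 held 2200 and 2050 bp, and that from 3021951 to 3024000 held 1950 and 2050 bp. Both sets thus listed most of each of these regions. The first also held 2 Cdk8 windows of the control siRNA cells.

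Outside that stretch, the region on chromosome 8 from 79970201 to 79972700 held 1900 bp of set 1 and 1950 bp of set 2. The region on chromosome 13 from 13020651 to 13023200 held 2000 and 1150 bp, in the same order. Chromosome 7 had a pair, with 1650 and 1400 bp between 12595551 and 12598100, and 1800 and 1150 bp between 24889351 and 24891700. On chromosome 12 from 116841201 to 116843800 set 1 listed 2050 bp and set 2 400 bp. Between 61618401 and 61620700 of chromosome 17 they listed 1950 and 600 bp. The top signals of these 6 regions ran from 62.6 to 204 in set 1 and from 37.4 to 120 in set 2. None of them held a Pol II or Med26 window, and the chromosome 7 region from 12595551 held 2 Cdk8 windows of the Cbx3 siRNA cells.

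The 5 highest set 2 signals among regions with both sets all lay in the same stretch of chromosome 9. They were led by the region from 3000001 to 3001600, with 17215 in set 2 and 792 in set 1. The input libraries were not used here, so whether the inputs are also high at these regions was not tested.

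Agreement between the sets was then read over all regions. Of 80667 set 1 regions in the dense bins, 2175 overlapped a set 2 region (2.70%, interval 2.59 to 2.81%), against 3.41% of all autosomal set 1 regions and 3.60% outside the dense bins. Most set 1 regions of the dense bins were thus not listed again, as was also so elsewhere. With merging at 1000 bp the order turned, to 6.30% in the dense bins and 5.55% in the others. The share in other Pol II-poor bins, 2.81%, was close to that of the dense bins.

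The share also moved with signal. For set 1 regions ranked by top signal, it was in the first decile 0.832% in the dense bins and 0.844% in other Pol II-poor bins, and in the ninth 4.48% and 4.43%. In the tenth it was 10.4% (interval 9.64 to 11.3%) in the dense bins, 14.4% (13.8 to 15.1%) in other Pol II-poor bins and 14.5% in other bins with more Pol II. The intervals of the dense bins and other Pol II-poor bins overlapped in the first 9 deciles and not in the tenth, where a smaller share of the dense-bin regions was listed again.

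Read the other way, 15.5% of the 14236 set 2 regions in the dense bins overlapped set 1, against 11% of all autosomal set 2 regions. Set 1 covers more of the dense bins, so a higher share there needs no closer match. Of 27399 set 2 windows in the dense bins, 4529 were also listed in set 1 (16.5%, interval 16.1 to 17.0%), against 12.8% of all autosomal set 2 windows. In other Pol II-poor bins the share was 9.75%. Averaged over bins with the set 2 windows of each as weight, set 1 listed 4.46% of the positions of the dense bins and 1.73% of those of other Pol II-poor bins. The choice of bins fixed that difference in coverage, so nothing is read from the shares relative to it.

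The dense bins occurred on every autosome. They made up 15.7% of the bins of chromosome 4 (24 bins), 14.9% of chromosome 1 (29 bins) and 12.7% of chromosome 5 (19 bins), against 3.36% of chromosome 11 (4 bins), the lowest share. They formed 156 runs, of which 102 were single bins, and 57.0% of the dense bins touched another.

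The longest run held 6 bins on chromosome 1 from 110000001 to 116000000, with 646 to 1338 set 1 windows per bin and 68 to 179 in set 2. Over its 6 Mb, Pol II listed 9 windows after Cbx3 siRNA, 5 in the control and 2 in untreated cells. There were 4 runs of 4 bins. Their first bases were 26000001 on chromosome 1, 129000001 on chromosome 6, 102000001 on chromosome 8 and 108000001 on chromosome 14. The chromosome 6 run had the highest set 1 total of these, 5102 windows, and the chromosome 14 run the lowest set 2 total, 251. Untreated Pol II listed 0 windows in all 4.

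The surroundings of the dense bins shared part of the pattern. Set 1 had a median of 763 windows in the dense bins, 481 and 486 in the bins 1 Mb to either side and 294 and 316 at 5 Mb. Choosing full bins fixes the peak itself, but the neighbours that were no dense bins also had medians of 376 and 389 at 1 Mb. Control Pol II had a median of 0 in the dense bins, 10 and 13.5 in those neighbours and 35 and 27.5 at 5 Mb. Set 2 had a median of 98 in the dense bins, the highest at any distance, 87 and 85.5 in those neighbours and 89.5 and 90 at 5 Mb. The neighbours that were no dense bins thus had more set 1 windows at 1 Mb than at 5 Mb, and slightly fewer set 2 windows.

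**Figure D3:**
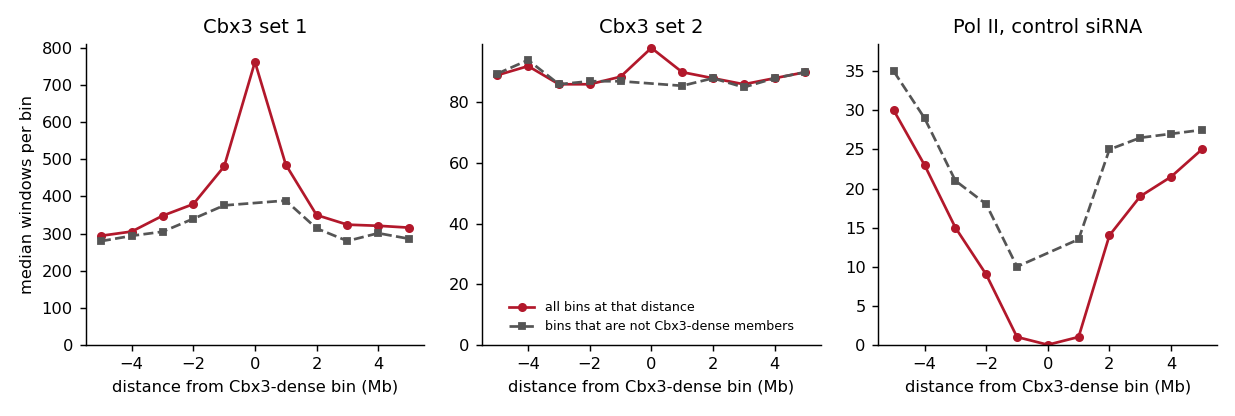
Median windows per bin (y axis) at each distance in Mb from a dense bin (x axis) for Cbx3 set 1, Cbx3 set 2 and control siRNA Pol II, over all bins at that distance and over those that are not dense members. Set 1 peaks at 763 with raised neighbours and Pol II dips to 0, while set 2 medians range over all distances from 85 to 98.

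Within a dense bin, set 1 windows were unevenly spread, as they were in other bins. Each bin was divided into 10 pieces of 100 kb. The variance over the mean of the piece counts had a median of 20.3 in the dense bins (interval 16.5 to 23.4) and 6.17 in all other bins. Independent windows at a constant rate would give about 1. The median share of windows in the fullest piece was 18.7% in the dense bins and 18.6% in the others. Both measures can depend on the number of windows per bin, which the choice of bins fixed for set 1, so the evenness of the kinds of bin is not compared for set 1. In set 2 the variance over the mean was 4.19 in the dense bins and 4.20 in the others.

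When the pieces were ranked by set 1 in each dense bin, their medians ran from 157 windows in the fullest to 32 in the emptiest. The emptiest pieces of the dense bins thus held about as many set 1 windows as the middle pieces of other Pol II-poor bins, with 30 and 27. Set 2 followed the ranking in part, with medians of 16 in the fullest and 6 in the emptiest piece of the dense bins, against 12 and 5 in other Pol II-poor bins. The 5 fuller pieces held 61.2% of set 2 windows in the dense bins and 60.5% in other Pol II-poor bins.

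**Figure D4:**
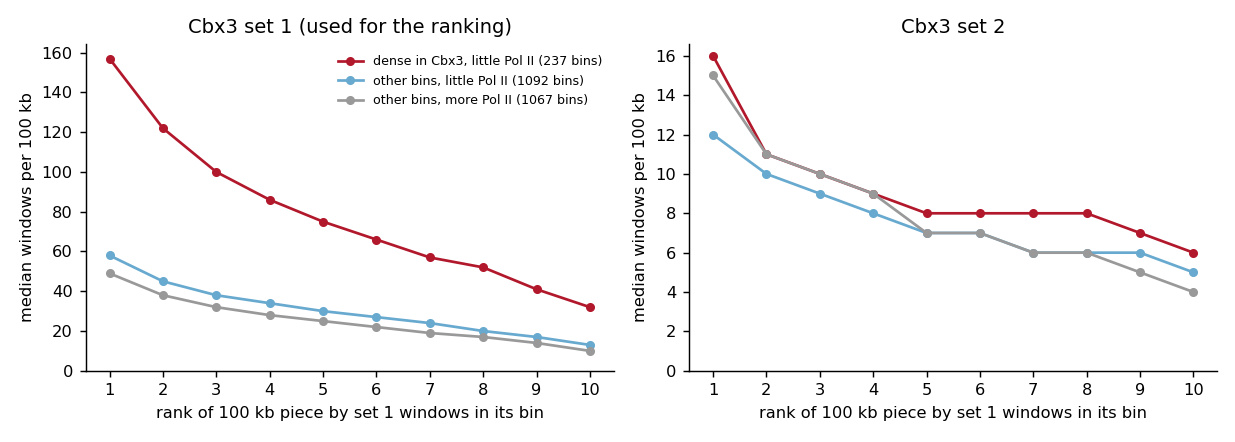
Median windows per 100 kb piece (y axis) by the rank of the piece in set 1 within its bin (x axis), for Cbx3 set 1 (left) and set 2 (right), in dense bins, other bins with little Pol II and other bins with more Pol II. Set 1 runs from 157 to 32 in the dense bins, while set 2 runs from 16 to 6, near the 12 to 5 of other bins with little Pol II.

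Pol II windows of the dense bins lay mostly in the pieces with fewer set 1 windows. The 5 fuller pieces held 29.7% of the Pol II windows after Cbx3 siRNA (interval 27.0 to 32.6%), 18.9% in the control (15.9 to 22.4%) and 17.7% in untreated cells (12.1 to 25.2%). In other Pol II-poor bins these shares were 46.3%, 44.7% and 42.9%, and in other bins with more Pol II 56.0%, 56.2% and 56.3%. Of the 565 control Pol II windows in the dense bins, 6 lay in the fullest piece of their bin and 130 in the emptiest. These windows formed 111 regions in 63 bins, so the intervals are too narrow. Set 1 and control Pol II also chose the bins, so the contrast with other kinds of bin is a description only. For control Cdk8 the share in the fuller pieces was 54.6% (interval 48.6 to 60.4%), and for control Med26 32.7% (24.3 to 42.3%).

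Single windows were compared next, again as a description. Of the control Pol II windows in the dense bins, 28.0% (interval 24.4 to 31.8%) were also listed in Cbx3 set 1, against 22.1% in other Pol II-poor bins. Set 1 covers more of the dense bins by the choice of bins, so nothing is read from that difference. Of the 130 untreated Pol II windows, 39 were in set 1 (interval of the share 22.8 to 38.4%). The pieces were ranked by set 1 alone, and both set 1 and control Pol II chose the bins, so neither the ranking nor these shares speak for Cbx3 in set 2. Set 2 listed 6.73% of the same control Pol II windows. Positions listed in 6 or more of the 9 libraries numbered 3 in the dense bins, in 2 bins, of 230319 positions listed there at all. Other Pol II-poor bins had 36 of 463484, and other bins with more Pol II 286 of 494857. The 21 bins dense in Cbx3 set 1 with more Pol II had 63 of 21621.

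Libraries that the choice did not use were also sparse. Untreated Pol II listed 130 windows in the dense bins, and 209 bins (88.2%) had 0, against 34.2% of all autosomal bins. Per Mb this was 0.216 times its density in other Pol II-poor bins (interval 0.181 to 0.257), and 0.0346 times that in all other bins, which include those the Pol II limit left out. Control Pol II itself was 0.246 times as dense as in other Pol II-poor bins. Densities relative to those bins, here and below, are thus not matched for control Pol II. Of the 130 untreated windows, 122 (93.8%) were also in the control list that chose the bins. That share was 94.2% over all autosomes and 93.4% in other Pol II-poor bins, so this overlap was not particular to the dense bins. Since most untreated windows were also control windows throughout, the low untreated count follows in part from the choice of bins. Pol II after Cbx3 siRNA had 0 windows in 78 dense bins (32.9%), against 12.2% of all autosomal bins.

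Med26 of the control siRNA cells listed 101 windows in the dense bins, and 195 bins (82.3%) had 0, against 34% of all autosomal bins. Its density was 0.294 times that in other Pol II-poor bins (interval 0.240 to 0.359), and 0.0605 times that in all other bins. Cdk8 of the control cells listed 273 windows, and 99 bins (41.8%) had 0, against 20.5% of all autosomal bins. Its density was 0.635 times that in other Pol II-poor bins (interval 0.559 to 0.720), and 0.260 times that in all other bins. Of the control Cdk8 regions in the dense bins, 74.6% were single windows, against 31.5% of the control Pol II regions, and the median signal of control Cdk8 windows there was 7.70, at a list minimum of 6.01.

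The fullest dense bins in control Pol II held 25 windows each, on chromosome 3 (106000001 to 107000000) and chromosome 7 (100000001 to 101000000). Chromosome 16 from 62000001 to 63000000 followed with 24, next to the bin with the most set 1 windows, and had 8 Med26 windows. Chromosome 4 from 70000001 to 71000000 and chromosome 5 from 105000001 to 106000000 held 21 each. In the same 5 bins the Cbx3 siRNA list held 19, 28, 19, 23 and 17 Pol II windows, so that 2 of the 5 held more than in the control.

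The last comparison set the siRNA arms side by side in the dense bins. Pol II listed 1033 windows after Cbx3 siRNA, against 565 in the control, a ratio of 1.83 (interval 1.65 to 2.03). In the other 2180 bins it listed 98495 after Cbx3 siRNA and 113427 in the control, a ratio of 0.868 (0.861 to 0.876). In the 1092 other Pol II-poor bins the ratio was 1.04 (1.01 to 1.07). In the 21 bins dense in Cbx3 set 1 with more than 30 control Pol II windows it was 0.846 (0.784 to 0.913). Those 21 were chosen by more control windows, which favours a lower ratio. Pol II after Cbx3 siRNA was listed in 159 of the 237 dense bins, against 63 bins in the control. Over all 2417 autosomal bins it was listed in 2122, against 1880 in the control. In the 1092 other Pol II-poor bins these counts were 875 and 729. The count was higher after Cbx3 siRNA in 130 dense bins (54.9%), lower in 28 and equal in 79. Of all autosomal bins 32.4% were higher and 54.2% lower. The choice of bins by few control windows favours higher counts after Cbx3 siRNA, and nothing is read from these counts alone.

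The untreated Pol II list was then used in place of the control list, so that neither arm set the limit. It gave 253 bins with 600 or more set 1 windows and 30 or fewer untreated Pol II windows. No dense bin held more than 10 untreated windows, so all 237 are among these 253, which are no separate set of bins. The 253 bins held 1702 Pol II windows after Cbx3 siRNA and 1370 in the control, a ratio of 1.24 (interval 1.16 to 1.33). Bins below 600 set 1 windows with the same limit had a ratio of 0.887, from 47974 after Cbx3 siRNA and 54099 in the control. With 0 untreated Pol II windows as the limit, a choice made after seeing the data, 210 bins had 600 or more set 1 windows. They held 648 after Cbx3 siRNA and 206 in the control, a ratio of 3.15 (2.69 to 3.68). Of these 210 bins, 209 were dense bins of the first choice. The 616 bins with 0 untreated windows and fewer than 600 set 1 windows held 2579 after Cbx3 siRNA and 1714 in the control (interval of the ratio 1.42 to 1.60). More Pol II windows after Cbx3 siRNA were thus also listed in bins poor in Pol II but not dense in Cbx3, at a smaller ratio. These groups were not matched for control Pol II, which was listed in 36 of the 210 bins and in 253 of the 616. With the limit of 30 untreated windows it was listed in 79 of the 253 bins, and in 1442 of 1805 bins below 600 set 1 windows. A ratio depends on the control count, so neither difference in ratio is read as an effect of Cbx3 density. With the Cbx3 siRNA list itself limited to 30, which favours the opposite direction, the ratio was 1.53 (1.39 to 1.68). No dense bin held more than 33 windows in that list, so this limit left out few of them. Each arm had 1 library, so the spread between libraries is unknown, and library and arm cannot be told apart.

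Windows of 1 arm alone had lower signal than shared windows in either arm. Of the 1033 Pol II windows after Cbx3 siRNA, 347 were also in the control list (33.6%). That share was 73.7% over all autosomal windows of that library and 59.2% in other Pol II-poor bins. The dense bins were chosen by few control windows, which favours a low share, so nothing is read from that difference. Of the 565 control windows these 347 made up 61.4%, against 64.3% of all autosomal control windows. The median signal after Cbx3 siRNA was 15.4 for the shared windows, against 11.7 for the 686 listed after Cbx3 siRNA alone. The same held in the control, with 16.6 for the shared windows and 9.96 for those listed in the control alone, and over all autosomes after Cbx3 siRNA, with 16.9 and 10.2. Set 1 held 5.98% of those listed after Cbx3 siRNA alone and 24.8% of those listed in the control alone. In other Pol II-poor bins set 1 held 9.74% of the windows listed after Cbx3 siRNA alone and 19.0% of those listed in the control alone, the same order. Set 1 covers more of the dense bins by the choice of bins, so the kinds of bin are not compared in these shares. The windows of the Cbx3 siRNA list formed 285 regions, and those of the control 111. With windows at or above the control median signal alone, 277 were listed in the dense bins after Cbx3 siRNA and 194 in the control, a ratio of 1.43, against 0.705 in the other bins.

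The 347 Pol II windows of both arms had a median log2 signal ratio, Cbx3 siRNA over control, of -0.15 (interval -0.21 to -0.07), against -0.29 over all 73343 autosomal windows of both arms, on the signal scale of the authors. The signal was higher after Cbx3 siRNA in 34.3% of them, against 25.7% of all. The windows common to both arms were therefore on balance lower after Cbx3 siRNA in the dense bins as well, while 686 windows were in the Cbx3 siRNA list alone and 218 in the control list alone.

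The bins with the largest surplus of Pol II windows after Cbx3 siRNA were named after their values were seen. On chromosome 13 from 87000001 to 88000000, Pol II listed 21 windows after Cbx3 siRNA and 1 in the control. On chromosome 1 from 31000001 to 32000000 it listed 33 and 14. On chromosome 14 from 83000001 to 84000000 it listed 14 and 0. Untreated Pol II listed 0 in all 3 bins, and set 1 listed 891, 747 and 725 windows there.

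**Figure D5:**
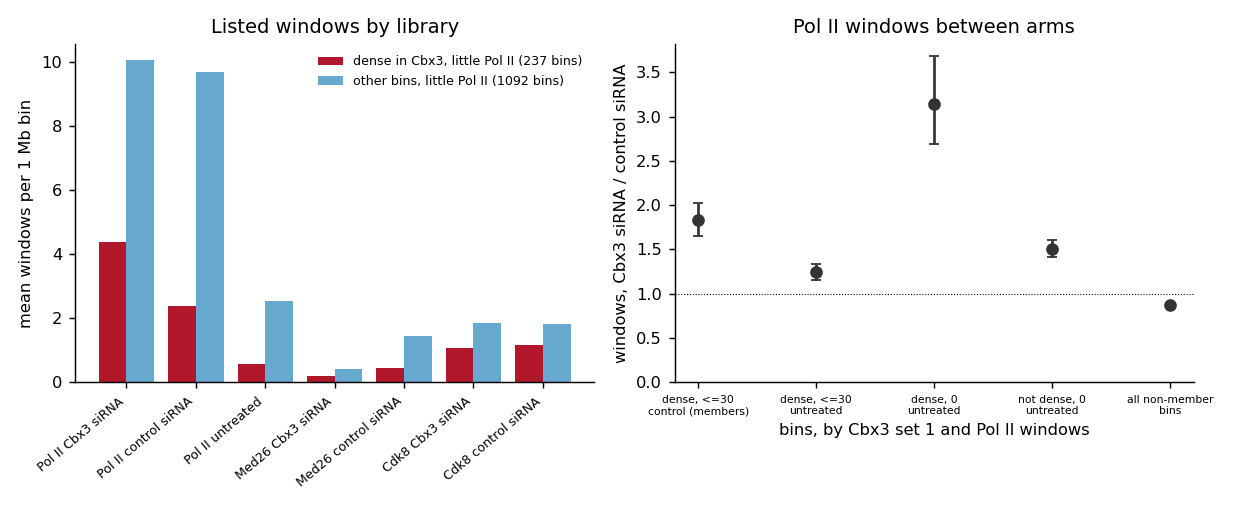
Left, mean windows per 1 Mb bin (y axis) of each Pol II, Med26 and Cdk8 library in dense bins and in other bins with little Pol II; right, Pol II windows after Cbx3 siRNA over control (points, with 95% intervals from counting error) for bins chosen in 5 ways. The ratio is 1.83 in the dense bins and 0.868 in all other bins. It is 1.24 and 3.15 when untreated Pol II makes the choice, which takes mostly the same bins.

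The Mediator subunits were set side by side in the same way. Med26 listed 44 windows in the dense bins after Cbx3 siRNA and 101 in the control, a ratio of 0.436 (interval 0.306 to 0.620), against 0.280 (0.252 to 0.311) in other Pol II-poor bins and 0.173 in all other bins. Among bins with 0 untreated Pol II windows, a choice made after seeing the data, it was 0.700 (0.434 to 1.13) with 600 or more set 1 windows and 0.591 (0.485 to 0.720) with fewer, and these intervals overlap. It had 0 windows in 203 of the dense bins after Cbx3 siRNA (85.7%), against 57.3% of all autosomal bins. Of its 101 control windows, 5 were listed again (4.95%, interval 2.13 to 11.1%), against 3.98% in other Pol II-poor bins and 6.10% over all autosomes. Cdk8 listed 254 windows after Cbx3 siRNA and 273 in the control, a ratio of 0.930 (0.784 to 1.10), against 1.10 in the other bins. It had 0 windows in 114 of the dense bins after Cbx3 siRNA (48.1%), against 21.6% of all autosomal bins. Other Pol II-poor bins had 2016 Cdk8 windows after Cbx3 siRNA and 1982 in the control, a ratio of 1.02 (0.956 to 1.08). Of the 273 control Cdk8 windows in the dense bins, 17 were listed again (6.23%, interval 3.92 to 9.75%), against 8.32% (7.19 to 9.62%) in other Pol II-poor bins and 24.7% over all autosomes. In both kinds of Pol II-poor bin most control Cdk8 windows were thus not listed again, and the intervals overlap.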

How the data were processed

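Per the submitters' processing notes, reads were aligned with Bowtie to the mouse build mm9. How windows were called, at which cut-off and against which of the 7 inputs is not given in the sources used here. The authors deposited, for each of 9 ChIP libraries, a list of 50 bp windows with a signal value, scaled by a factor not stated. Values were multiples of 1 step per library, to within 0.05 of a step. Total depth is unknown.

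Windows were counted in 1 Mb bins (start counted from 1), merged at 200 bp, and called overlapping from 1 bp. Bins with no Cbx3 window were left out. Shares carry 95% Wilson intervals, ratios of counts intervals derived from them, and medians binomial intervals of order statistics. With 1 library per siRNA arm no test was made, and no resampling was used. Counting, merging and overlap were tested on simulated data: 8 of 8 checks on 40 simulated bins were recovered.

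The bins, limits and alternatives were chosen with earlier results of these data known. Named bins were the fullest in set 1, set 2 and control Pol II, those nearest each limit and the longest runs (with ties), and named regions the 10 longest and the 5 of highest set 2 signal with both sets, leaving out chromosome 18. Genes and sequences are not given, since the gene and sequence tables used here are of another build and coordinates were not converted. Computations used Python 3.11.15 with matplotlib 3.10.9, scipy 1.17.1, pandas 2.3.3 and numpy 2.4.6. Alternatives changed the limits, the grid, the merging, the overlap and the signal of windows.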

Additional observations from a re-analysis of the deposited data

How the results depend on the processing

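Of 89 alternative values, 39 stayed within the interval of the reported value or, for counts, within 1.5 times the reported one. Another 49 moved, and 1 crossed from above 1 to below 1. Fewer bins, samples or windows enter by construction in some, and otherwise the cause was not tested. The value that crossed 1 was the set 2 density ratio, 0.991 with windows at or above the median signal. It lies so close to 1 that no turn in direction is read from it. That ratio was otherwise 1.17 with 500 set 1 windows as the limit, 1.12 and 1.22 with 10 and 60 Pol II windows, 1.23 with the untreated Pol II list, 1.15 on a grid moved by 500 kb and 1.13 without the 5 dense bins fullest in set 2 (chosen after seeing the data). A minimum of 700 windows left 156 bins. The regions numbered 54669 with merging at 1000 bp and from 14236 to 80667 with either Cbx3 set left out. Their mean listed length was 119, 157 and 209 bp with merging at 0, 500 and 1000 bp, and from 96.2 to 128 bp with either set left out.

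The share of set 1 regions overlapping set 2 in the dense bins was 2.52% with 10 Pol II windows, 2.86% with the untreated list, 2.58% with an overlap of 50% of the shorter region, 2.51, 3.81 and 6.30% with merging at 0, 500 and 1000 bp, and 1.99% with windows at or above the median signal. Density relative to other bins, for untreated Pol II, was 0.0543 with 500 set 1 windows, 0.00798 and 0.0770 with 10 and 60 Pol II windows, and 0.0830 and 0.0419 with the untreated and Cbx3 siRNA lists. For control Med26 it was 0.0816, 0.0259, 0.115 and 0.120 in the first 4 of these. For control Cdk8 it was 0.226 and 0.370 with 10 and 60 Pol II windows, 0.306 with the untreated list and 0.306 on the moved grid.

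The alternative runs used the same library per arm and overlapping bins, so they are no separate evidence on the siRNA arms. A low limit on control Pol II windows also favours more windows after Cbx3 siRNA than in the control. The Cbx3 siRNA over control ratio of Pol II windows stayed above 1 in each of these runs. It was 1.41 with 500 set 1 windows, 3.87 and 1.33 with 10 and 60 Pol II windows, 1.24 and 1.53 with the untreated and Cbx3 siRNA lists, 1.57 on the moved grid, and, both chosen after seeing the data, 1.43 with windows at or above the control median and 3.15 with 0 untreated windows. That of Med26 was 0.846 and 0.282 with 10 and 60 Pol II windows and 0.286 with the untreated list, and that of Cdk8 ran from 0.818 to 1.07. The set 2 signal difference, dense minus other bins, was -0.655 without windows above 10 times the median, and -0.698 with them. The variance over the mean was 13.2 and 6.02 for set 1 with pieces of 50 and 10 kb, and 3.01 for set 2 at 10 kb. No paired analysis was possible because no antibody was mapped more than once in either arm. Few reads per window limit both Cbx3 sets, and the low counts of Med26 and Cdk8 in the dense bins limit their ratios.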
